A study of Rattus norvegicus with 6 samples.

Results

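A set of 8 genes of NF-kB signalling was followed in rat rostral ventromedial medulla (RVM), part of the brainstem with descending fibres to the spinal and trigeminal dorsal horn that can raise or lower pain transmission. They are the receptors Tlr4 (ENSRNOG00000010522) and Il1r1 (ENSRNOG00000014504), the subunit gene Nfkb1 (ENSRNOG00000023258), the inhibitor Nfkbia (ENSRNOG00000007390), the secreted Il1b (ENSRNOG00000004649) and Ccl2 (ENSRNOG00000007159), and the adhesion molecules Icam1 (ENSRNOG00000020679) and Vcam1 (ENSRNOG00000014333). The members were taken by Ensembl identifier, and 8 of 8 were present among the 22976 genes of the table. The symbols came with that selection. The references at hand pair no Ensembl identifier with a symbol, so the pairing was not checked independently.

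Rats of the CFA group had been injected bilaterally in the temporomandibular (jaw) joint with 50 µL of complete Freund's adjuvant (CFA), in which killed mycobacteria in oil provoke lasting inflammation. Rats of the saline group had 50 µL of saline at the same sites. Tissue was profiled on day 3 by poly-A RNA sequencing, with 3 libraries in the CFA group and 3 in the saline group. The labels used here name no strain, sex or age, and do not state whether each library was a separate animal. The p-values therefore cover the spread among these libraries alone, and that spread may be technical. The comparison asked how these transcripts differed in the RVM at day 3, in a study of microglia and synaptic pruning in orofacial pain. Library totals were 27534174 to 38260153 fragments in CFA and 34440104 to 44977905 in saline. Markers that would check the dissected region or its cell types were not analysed here, since the files name no genes. In bulk tissue, more cells of a type and more RNA per cell cannot be told apart.

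NF-kB is a family of dimeric transcription factors that wait in the cytoplasm bound to IkB proteins. Ligands of Toll-like and interleukin receptors activate a kinase complex that marks IkB for destruction, the freed dimers enter the nucleus, and they switch on cytokine, chemokine and adhesion genes together with the gene of their own inhibitor, IkB-alpha, which closes a negative feedback loop. In the brain, TLR4 is known mainly from microglia, and ICAM-1 and VCAM-1 are known from activated endothelium, where they hold leukocytes that cross the vessel wall.

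Promoters are shown because NF-kB is known to act on several of these genes through their proximal upstream sequence. RefSeq promoters (build GRCr8) were found by symbol for 7 of the 8 genes, the exception being Ccl2. Each line below holds the 250 bases before the annotated transcript start, from 5′ to 3′ on the strand of the gene. Capitals mark matches, on either strand, to the 10-base NF-kB consensus, to the 9-base palindromic variant GGAANTTCC, or to TATAAA, the core of the TATA box. Icam1 lies at chr8:27829595-27829844 on the plus strand, Vcam1 at chr2:206742784-206743033 on the minus strand, Nfkbia at chr6:78597073-78597322 on the minus strand and Il1b at chr3:137036582-137036831 on the minus strand.
Icam1: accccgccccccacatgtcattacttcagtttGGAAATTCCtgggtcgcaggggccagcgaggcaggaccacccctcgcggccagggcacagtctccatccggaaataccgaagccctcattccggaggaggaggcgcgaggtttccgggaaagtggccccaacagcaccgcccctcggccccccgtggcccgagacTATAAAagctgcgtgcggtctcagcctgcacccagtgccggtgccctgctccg
Vcam1: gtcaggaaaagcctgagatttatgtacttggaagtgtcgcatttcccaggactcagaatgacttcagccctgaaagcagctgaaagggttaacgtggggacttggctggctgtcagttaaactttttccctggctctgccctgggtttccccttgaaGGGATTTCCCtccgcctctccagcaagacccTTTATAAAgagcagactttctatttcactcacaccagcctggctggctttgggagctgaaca
Nfkbia: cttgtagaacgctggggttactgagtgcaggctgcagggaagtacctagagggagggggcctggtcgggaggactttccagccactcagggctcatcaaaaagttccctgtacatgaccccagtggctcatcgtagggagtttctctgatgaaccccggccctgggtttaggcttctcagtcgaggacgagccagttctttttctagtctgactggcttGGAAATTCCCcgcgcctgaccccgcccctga
Il1b: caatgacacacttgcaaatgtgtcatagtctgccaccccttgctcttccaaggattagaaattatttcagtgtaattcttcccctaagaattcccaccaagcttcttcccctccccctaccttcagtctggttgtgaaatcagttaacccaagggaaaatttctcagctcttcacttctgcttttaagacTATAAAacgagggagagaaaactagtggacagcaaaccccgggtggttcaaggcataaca

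The Vcam1 window held GGGATTTCCC at -93 to -84, a match to the NF-kB consensus, with TATAAA at -60 to -55 overlapping a match on the opposite strand at -62 to -57. In Nfkbia, GGAAATTCCC at -31 to -22 matched the consensus when read on the opposite strand, and contains the palindromic variant at -31 to -23. Icam1 had no consensus match but held the palindromic variant, GGAAATTCC, at -218 to -210, and TATAAA at -53 to -48. Il1r1, not printed, held GGAATGCCCC at -135 to -126, a consensus match on the opposite strand. Tlr4, Nfkb1 and Il1b had no match to the 2 NF-kB-type motifs in this window, and Il1b held TATAAA at -60 to -55. Matches of either NF-kB-type motif were thus found in 4 of 7 promoters, against 2233 of 33469 RefSeq promoters of the same length (6.67%). The consensus alone was in 6.33% of all promoters, the palindromic variant in 0.669% and TATAAA in 12.9%. These motifs were chosen for genes already known as NF-kB targets, and a match describes letters, not binding.

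**Figure D1:**
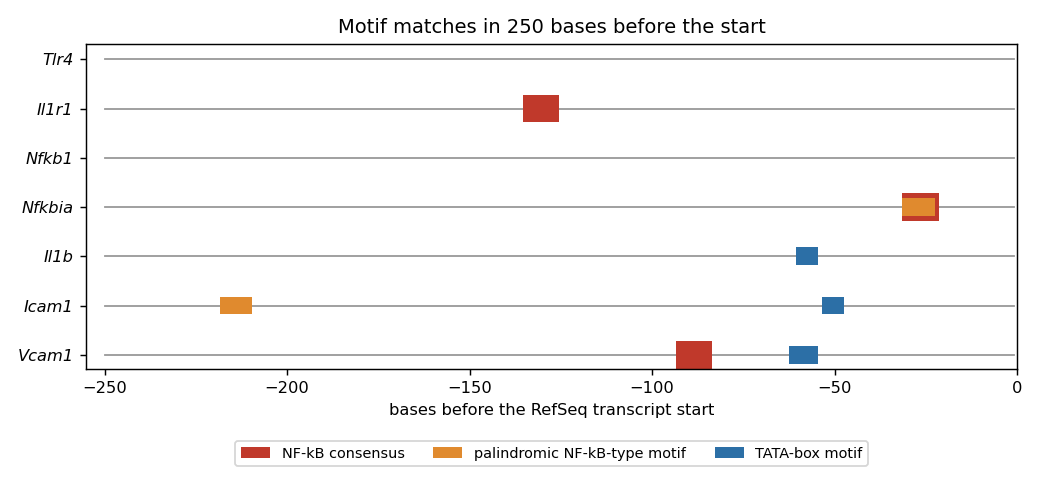
Matches to the NF-kB consensus, to its palindromic variant and to the TATA-box motif in the 250 bases before the RefSeq start of 7 genes, with distance from the start in bases on the horizontal axis. Vcam1, Nfkbia and Il1r1 hold a consensus match, Icam1 and Nfkbia the palindromic variant, and Tlr4 and Nfkb1 hold none of the 3 motifs.

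All 8 genes were higher in CFA than in saline in the sense that the lowest CFA library lay above the highest saline library. That held for 16.1% of all 22976 genes. In the test across genes, limma on log2(FPKM + 1) with Benjamini-Hochberg adjustment over the 13566 genes averaging 1 FPKM or more (fragments scaled to gene length and library total), 7 members could be tested and 7 rose at an adjusted p under 0.05. Among all genes tested 11.3% rose, and 18.8% changed in either direction. Il1b, with a mean of 0.583 FPKM over the 6 libraries, was below the filter. Tlr4, Ccl2 and Icam1 were tested only because their CFA values lifted the mean over 1 FPKM, so the count of 7 is no support by itself. Il1r1, Nfkb1, Nfkbia and Vcam1 passed the filter in saline alone. All members were chosen with earlier results of these data known, so none of their calls is independent support.

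**Figure D2:**
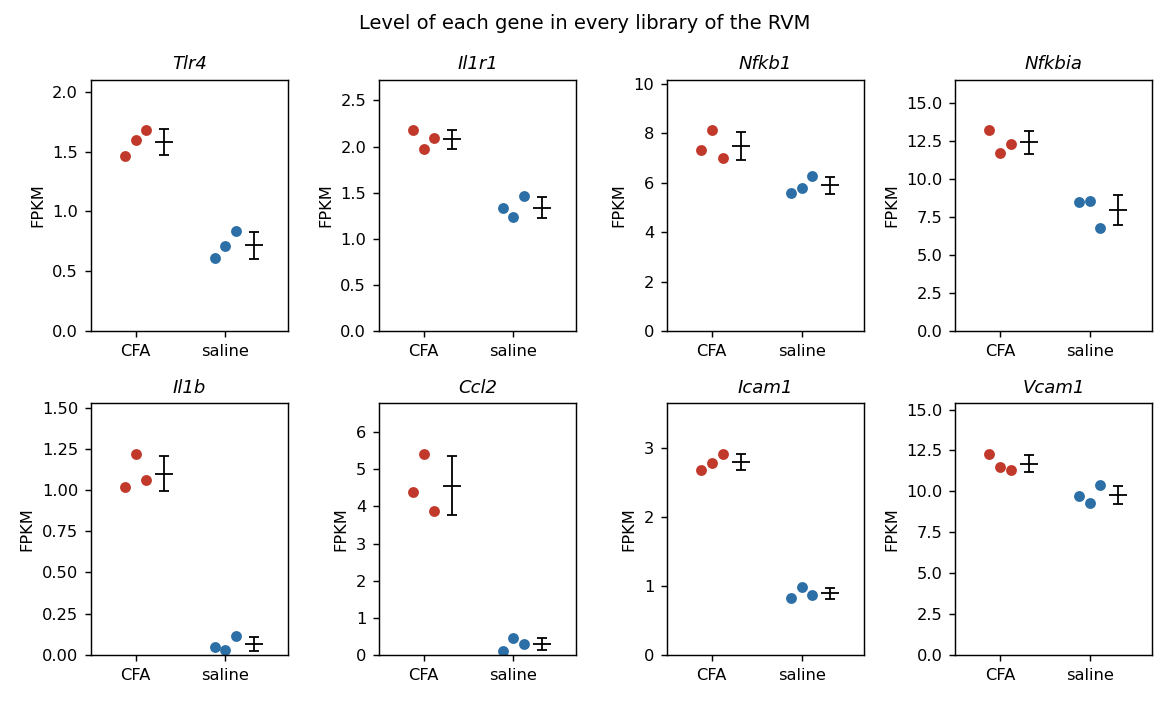
FPKM of the 8 genes in each of the 3 CFA and 3 saline libraries, with 1 point per library and the mean ± SD beside the points, each panel with its own axis from 0. In every panel the 3 CFA points lie above the 3 saline points, by a wide gap for Il1b, Ccl2 and Icam1 and by a narrow one for Nfkb1 and Vcam1.

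The sizes of the changes differed widely. The ratio of group means, CFA over saline, was 17.3 for Il1b and 16.0 for Ccl2, then 3.13 for Icam1, 2.20 for Tlr4, 1.56 for Nfkbia, 1.55 for Il1r1, 1.27 for Nfkb1 and 1.20 for Vcam1. The median log2 change of the 7 tested members was 0.59, beside 0.012 over all genes tested. Tlr4, Ccl2 and Icam1 were among the 7 only through their CFA values, so this median is no support by itself. The 4 members that passed the filter in saline alone changed by 0.59 (Nfkbia), 0.40 (Il1r1), 0.30 (Nfkb1) and 0.24 (Vcam1). Adding 1 FPKM before taking logs understates the change of low genes. A fit without that addition, limma's voom on whole fragments recovered from the FPKM steps, was made over the 18453 genes averaging 0.1 FPKM or more, where 12.2% rose at an adjusted p under 0.05 (limma voom) and the 8 members were among them. Il1b entered that fit only through its CFA values, so its call there is no support by itself. The fit was chosen after the data were seen.

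Both receptor genes rose. Tlr4 encodes the receptor for bacterial lipopolysaccharide and for several molecules released by injured tissue. It had 1.46, 1.60 and 1.68 FPKM in CFA replicates 1, 2 and 3, against 0.608, 0.712 and 0.835 FPKM in saline replicates 1, 2 and 3. The lowest CFA library was 1.75 times the highest saline library. Behind these values stood 541 fragments in CFA and 294 in saline. On the log2(FPKM + 1) scale the change was 0.59 (SE 0.0864, adjusted p = 0.00274, limma), and without the added 1 FPKM it was 1.15 (95% interval 0.79 to 1.50, voom). Tlr4 passed the 1 FPKM filter only through CFA, so the p at that filter is no support by itself. With no filter on level its adjusted p on the log2(FPKM + 1) scale was 0.006 (limma).

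Il1r1 encodes the signalling receptor for interleukin-1. Its values were 2.18, 1.97 and 2.09 FPKM in CFA and 1.33, 1.24 and 1.46 FPKM in saline, in replicate order. The groups did not overlap, and the lowest CFA library was 1.35 times the highest saline library. On that scale the change was 0.40 (SE 0.0731, adjusted p = 0.00813, limma), and 0.64 by voom (95% interval 0.41 to 0.87). Its 983 fragments in CFA and 758 in saline came from a gene of 4794 bp, the longest of the 8 as worked out from the FPKM steps.

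The subunit and inhibitor genes rose with smaller ratios than the secreted products. Nfkb1 encodes the precursor of a DNA-binding NF-kB subunit and is itself a known NF-kB target. It had 7.32, 8.13 and 7.01 FPKM in CFA, against 5.60, 5.79 and 6.27 FPKM in saline. The groups were separated by a small step, with the lowest CFA library at 1.12 times the highest saline library. The log2 change was 0.30 (SE 0.0637, adjusted p = 0.0149, limma). Without saline replicate 1 the change was 0.27 and the adjusted p was 0.0545 (limma), just over the threshold. It was 0.0498 (limma) without saline replicate 2, just under it. With a CFA library or saline replicate 3 left out, the adjusted p was 0.0193 to 0.039 (limma).

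Nfkbia, which encodes IkB-alpha, had the highest mean of the 8 genes in CFA. Its values there were 13.2, 11.7 and 12.3 FPKM, against 8.51, 8.52 and 6.80 FPKM in saline. Saline replicate 3 stood below the other saline libraries, and the lowest CFA library was 1.38 times the highest saline library. The log2 change was 0.59 (SE 0.0836, adjusted p = 0.00231, limma), and it was 0.49 with an adjusted p of 0.00209 (limma) without saline replicate 3. Nfkbia gained 4.48 ± 0.721 FPKM (difference of means ± SE), close to the gain of Ccl2, but from a much higher level in saline.

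The secreted pair showed the widest separation. Ccl2 encodes a chemokine that attracts monocytes through the receptor CCR2. It had 4.40, 5.42 and 3.87 FPKM in CFA libraries and 0.113, 0.444 and 0.300 FPKM in saline libraries. In fragments these were 132, 117 and 98 in CFA and 4, 12 and 9 in saline, so the saline level rests on few fragments. Even the lowest CFA library was 8.71 times the highest saline library. On the log2(FPKM + 1) scale it changed by 2.11 (SE 0.131, adjusted p = 2.63e-05, limma), the largest among the 7 tested members and the 25th largest rise of the 13566 genes. By voom it was 4.14 (95% interval 3.19 to 5.08). Ccl2 passed the 1 FPKM filter only through CFA, so its p and place among the 13566 genes are no support by themselves. With no filter on level, over all 22976 genes, its adjusted p was 0.000403 (limma). The gain was 4.28 ± 0.465 FPKM (SE).

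Il1b encodes interleukin-1 beta, a cytokine made as an inactive precursor and the ligand of the receptor encoded by Il1r1. It had 1.02, 1.22 and 1.06 FPKM in CFA, against 0.0476, 0.0311 and 0.112 FPKM in saline. The fragment counts were 73, 63 and 64 in CFA and 4, 2 and 8 in saline. The 14 saline fragments have a 95% exact Poisson interval of 7.65 to 23.5, and the pooled ratio of fragments per total was 17.1, CFA over saline (95% exact interval 9.97 to 31.9, counting error only). Il1b was thus scarce in saline, at place 19192 of 22976 genes by mean FPKM, and stood at place 13440 in CFA. Its log2 change was 4.12 by voom (95% interval 3.04 to 5.20, adjusted p = 5.48e-07, limma voom), which was the 32nd largest rise of 18453 genes, next to Ccl2 at the 29th. Il1b passed that filter only through CFA, its saline mean being 0.0636 FPKM, so this p and place describe it and are no support by themselves. With no filter on level, over all 22976 genes, its change on the log2(FPKM + 1) scale was 0.98 (adjusted p = 0.000298, limma).

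**Figure D3:**
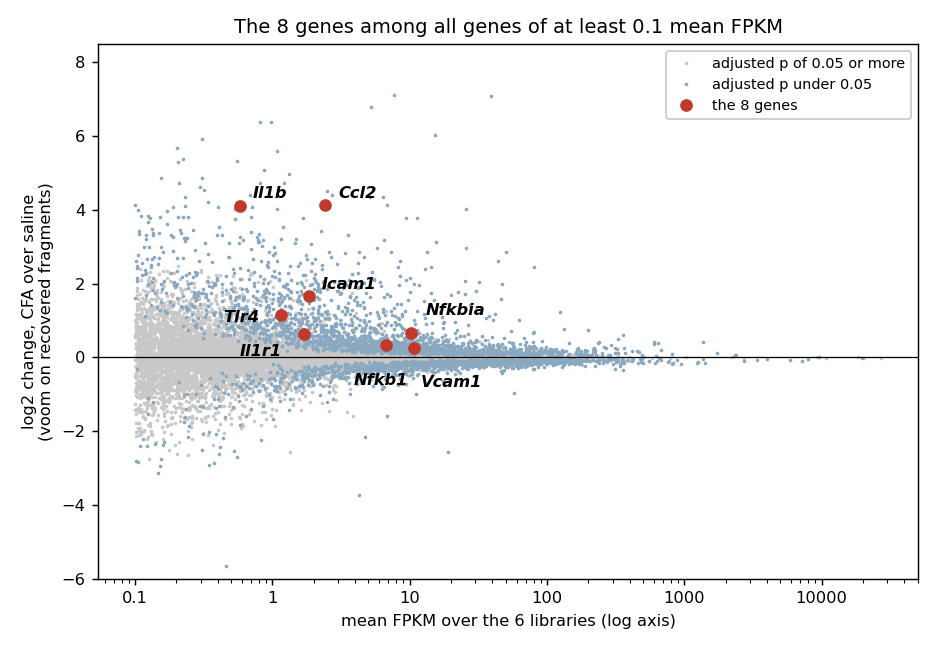
Log2 change, CFA over saline, by voom on recovered fragments against the mean FPKM over 6 libraries on a log axis, for 18453 genes (small points, coloured by adjusted p) and the 8 genes (large points). Il1b and Ccl2 lie near 4 on the log2 scale, above most genes, while Nfkb1 and Vcam1 lie at 0.34 and 0.26, inside the upper edge of the cloud.

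The adhesion molecules rose by unlike amounts. Icam1 encodes a ligand for leukocyte integrins such as LFA-1 and CR3. It had 2.68, 2.79 and 2.92 FPKM in CFA and 0.820, 0.983 and 0.876 FPKM in saline. The groups lay far apart for their spread, and the lowest CFA library was 2.73 times the highest saline library. The 720 fragments in CFA and 274 in saline gave a pooled ratio per total of 3.15 (95% exact interval 2.74 to 3.63, counting error only). The log2 change was 1.00 (SE 0.0718, adjusted p = 5.47e-05, limma), and 1.65 by voom (95% interval 1.32 to 1.99). Icam1 passed the 1 FPKM filter only through CFA, so the p at that filter is no support by itself. With no filter on level its adjusted p on the log2(FPKM + 1) scale was 0.000414 (limma).

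Vcam1 encodes a ligand of the integrin VLA-4. Its levels were 12.3, 11.5 and 11.3 FPKM in CFA, against 9.69, 9.29 and 10.4 FPKM in saline. The groups came near each other, with the lowest CFA library at 1.09 times the highest saline library. The log2 change was 0.24 (SE 0.0502, adjusted p = 0.0147, limma). Without CFA replicate 1 the change was 0.21 (adjusted p = 0.0505, limma), and without saline replicate 1 it was 0.23 (adjusted p = 0.0507, limma), so the size stayed close while the adjusted p passed just over 0.05. There were 4253 fragments in CFA and 4249 in saline, where the libraries were deeper.

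**Figure D4:**
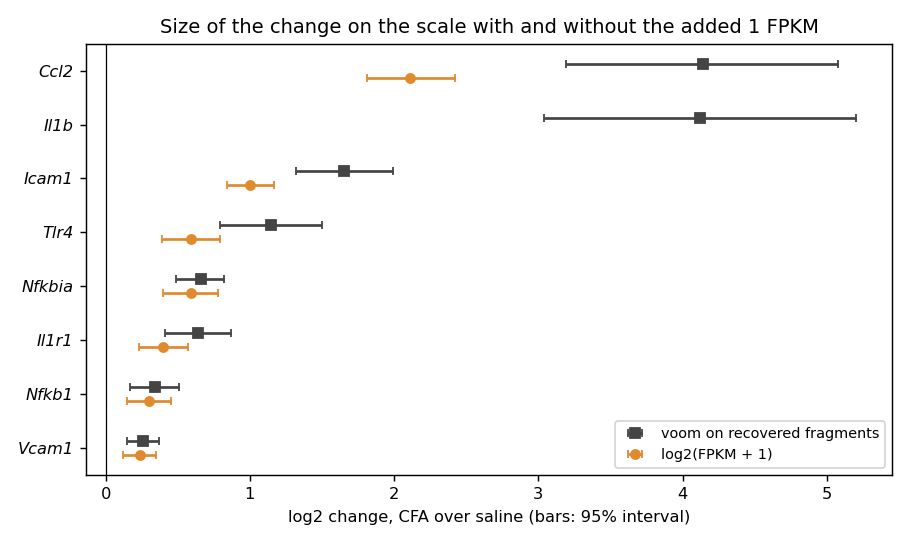
Log2 change of each gene, CFA over saline, with its 95% interval, on the log2(FPKM + 1) scale (circles) and by voom on recovered fragments (squares). The scales give nearly the same value for the abundant Nfkbia, Nfkb1 and Vcam1, while Ccl2 moves to 4.14 by voom, against 2.11 with the added 1 FPKM.

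Ordered by FPKM, which is per length, the genes did not keep the same places. In CFA the order was Nfkbia (12.4 ± 0.762 FPKM), Vcam1 (11.7 ± 0.500), Nfkb1 (7.49 ± 0.579), Ccl2 (4.56 ± 0.788), Icam1 (2.80 ± 0.118), Il1r1 (2.08 ± 0.103), Tlr4 (1.58 ± 0.110) and Il1b (1.10 ± 0.108; SD, n = 3 each). Nfkbia and Vcam1 overlapped there, and no other neighbours did. In saline the order was Vcam1 (9.78 ± 0.539 FPKM), Nfkbia (7.95 ± 0.989), Nfkb1 (5.89 ± 0.343), Il1r1 (1.34 ± 0.111), Icam1 (0.893 ± 0.0826), Tlr4 (0.718 ± 0.114), Ccl2 (0.286 ± 0.166) and Il1b (0.0636 ± 0.0428; SD, n = 3 each), and only Icam1 and Tlr4 overlapped. Ccl2 stood in the seventh place in saline and in the fourth in CFA, above both receptors and Icam1. Il1b came last in both groups.

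Gains in FPKM ranked the genes differently from ratios. The gain, CFA minus saline, was 1.93 ± 0.425 FPKM for Vcam1 and 1.90 ± 0.0832 for Icam1 (SE), although their ratios were 1.20 and 3.13. It was 1.60 ± 0.388 FPKM for Nfkb1, 1.04 ± 0.0671 for Il1b, 0.862 ± 0.0914 for Tlr4 and 0.738 ± 0.0877 for Il1r1 (SE).

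Ratios between members within a library, which do not depend on how libraries were scaled, were compared for 5 pairs by exact two-sided permutation tests, where 3 against 3 libraries cannot give a p under 0.10. Icam1 over Vcam1 was 0.219, 0.242 and 0.258 in CFA, against 0.0846, 0.106 and 0.0846 in saline, without overlap (exact p = 0.10, adjusted over 5 ratios 0.167). Icam1 stood higher beside Vcam1 in each CFA library than in any saline library. Tlr4 over Il1r1 was 0.671, 0.814 and 0.801 in CFA and 0.457, 0.576 and 0.573 in saline, again without overlap (exact p = 0.10, adjusted 0.167). Il1b over Il1r1, the cytokine to its receptor, was 0.470, 0.622 and 0.507 in CFA, against 0.0358, 0.0252 and 0.0769 in saline (exact p = 0.10, adjusted 0.167). Its saline values rest on 4, 2 and 8 fragments of Il1b, in replicate order. These ratios reuse the values given above for each gene, so they are no separate support.

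The other pairs overlapped between the groups. Nfkbia over Nfkb1, the inhibitor to the subunit precursor, was 1.81, 1.44 and 1.75 in CFA and 1.52, 1.47 and 1.09 in saline (exact p = 0.30, adjusted 0.375). Its log2 difference was 0.30, and CFA replicate 2 lay below saline replicates 1 and 2. Ccl2 over Il1b was 4.31, 4.42 and 3.65 in CFA, against 2.38, 14.3 and 2.68 in saline (exact p = 1, adjusted 1). The overlap comes from the saline value of 14.3, which divides 12 fragments by 2, each corrected for length. The other saline values lay below the 3 CFA values.

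**Figure D5:**
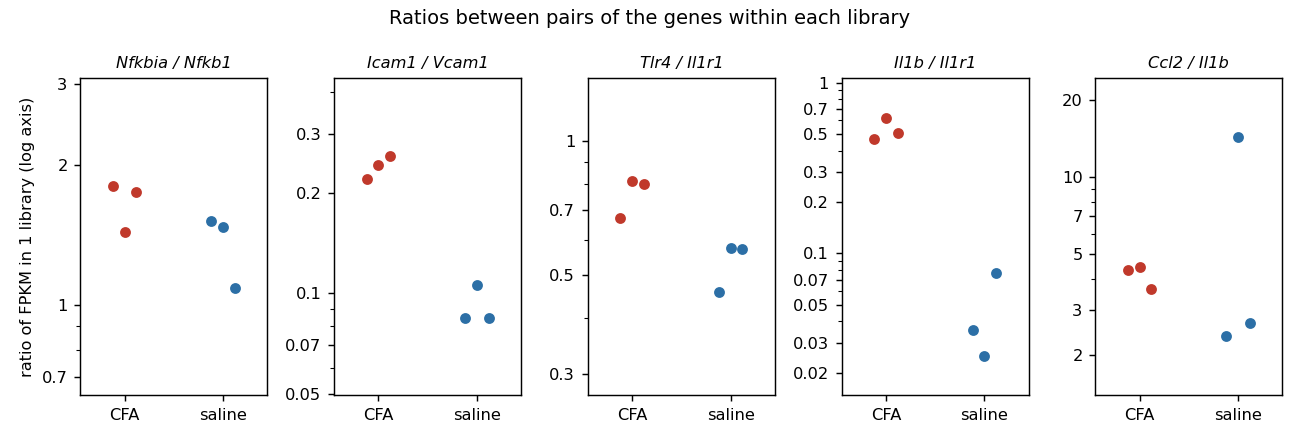
Ratio of FPKM between 2 genes in each library, on log axes, for 5 pairs in CFA and saline. Icam1 / Vcam1, Tlr4 / Il1r1 and Il1b / Il1r1 are higher in all CFA libraries than in all saline libraries, while Nfkbia / Nfkb1 and Ccl2 / Il1b overlap.

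No library was extreme throughout. In CFA, replicate 1 was the highest of its group in 3 of the 8 genes and the lowest in 3, replicate 2 the highest in 3 and the lowest in 2, and replicate 3 the highest in 2 and the lowest in 3. In saline, replicate 3 was the highest in 5 genes and the lowest in 1, and replicate 1 was the highest in 0 and the lowest in 4. In saline, spread between libraries was widest for Il1b and Ccl2, the genes with the fewest fragments (14 and 25). Fewer fragments did not always go with a wider spread. In saline, Nfkbia had a coefficient of variation of 12.5% on 1898 fragments, above 9.26% for Icam1 on 274. In CFA it was widest for Ccl2 (347 fragments), although Il1b had only 200. The coefficient of variation of Il1b was 9.79% in CFA and 67.3% in saline, and that of Ccl2 was 17.3% in CFA and 58.0% in saline. For Vcam1 it was 4.27% in CFA and 5.52% in saline, near the medians of 4.84% and 4.54% over all genes tested.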

How the data were processed

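Poly-A RNA from 6 RVM libraries was sequenced on a DNBSEQ-T7 instrument, per the labels' protocols. The authors deposited FPKM values for 22976 genes. The submitters' processing notes name the build mRatBN7.2 and the tools DESeq2 1.30.1, fastp 0.21.0, HISAT2 2 and StringTie 2, without saying what each did. Counting rules and strand settings are not stated, so overlapping genes may share fragments.

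Sample titles gave group and replicate number. Genes averaging 1 FPKM or more were tested on log2(FPKM + 1) with limma 3.58.1 in R 4.3.3 (eBayes with trend, 4 residual degrees of freedom, two-sided, Benjamini-Hochberg over all genes tested, threshold 0.05). Whole fragments were worked out from the FPKM steps for 22971 genes (tolerance 0.0001). A fragment may be a read or a pair, and fragments and length of a gene could both be too small by a shared divisor. Both steps were tested on simulated data. Intervals from fragments cover counting error only. Permutation tests used scipy 1.17.1 in Python 3.11.15.

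The members and lists were chosen with earlier results of these data known, and all members are named. Planned lists of other pathway genes and cell type markers, and a rule naming the pathway gene most alike to each member, were not run, because the files and references pair no identifier with a symbol. Those genes are not analysed here. Alternatives covered pseudocount, filter, scaling, variance moderation, voom, the replicate number as a block and each library left out.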

Additional observations from a re-analysis of the deposited data

How the results depend on the processing

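Over 20 alternatives none of the 8 genes changed direction. Tlr4, Il1r1, Nfkbia, Ccl2 and Icam1 stayed under an adjusted p of 0.05 (limma) wherever they were tested, and Il1b was under it in the 4 alternatives that tested it. Among these, only the fit with no filter tested Il1b whatever its CFA level. In the alternatives with the 1 FPKM filter, Tlr4, Ccl2 and Icam1 were tested only through CFA, so their calls there are no support by themselves. With no filter their adjusted p were 0.006, 0.000403 and 0.000414 (limma), in that order. Nfkb1 missed the threshold of 0.05 without saline replicate 1, and Vcam1 without CFA replicate 1 and without saline replicate 1. A filter at a mean of 5 FPKM left 3 members tested, and 3 were called, beside 2013 of all 8587 genes tested there, 1061 of them higher in CFA. With the replicate block 2086 of 13566 genes and 7 of 7 members passed, against 2545 genes without it. Deviations from the group means correlated across genes at -0.0214, 0.0208 and 0.0229 between same-numbered libraries, so the numbers were not taken as pairs.

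The count of all genes called was 1758 to 1997 with a library left out and 3468 with voom. Of genes called, 60.1% were higher in CFA with FPKM as given, 50.9% with median ratio scaling and 46.3% with quantile scaling. Genes called higher numbered 1530, 1364 and 1197 of the 13566 tested, in that order. All 7 tested members were higher and called under each, with Tlr4, Ccl2 and Icam1 tested only through CFA. Their log2 changes were all smaller with quantile scaling than with FPKM as given. That of Tlr4 was 0.46 against 0.59, that of Il1r1 0.32 against 0.40, and that of Nfkb1 0.25 against 0.30. Genes at 1 FPKM or more numbered 13623 to 13678 in CFA libraries and 13382 to 13434 in saline libraries. Genes lower in CFA numbered 1015, 666 without the variance trend, 600 without saline replicate 1 and 635 without saline replicate 3. The cause was not tested. Folds of low genes depend on the added constant, with the log2 change of Ccl2 at 2.11 with 1 FPKM added, 3.68 with 0.1 FPKM and 4.13 with 0.01 FPKM. Depth limits the saline levels of Il1b (14 fragments) and Ccl2 (25 fragments). Lists of pathway genes and markers had no value under any alternative.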
